A study of Mus musculus with 12 samples.

Results

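Genes of the Rnf, Znrf and Marchf series were examined in mouse muscle stem cells (MuSCs) and in the primary myoblasts grown from them. Most of these symbols name proteins with a RING-type domain, many of them E3 ubiquitin ligases. Members were taken by symbol alone: Rnf, Znrf or Marchf followed by a number, with or without a letter after it. Of the 17505 genes listed in either expression table, 85 were members, comprising 72 Rnf, 3 Znrf and 10 Marchf genes. The MuSC and myoblast table listed 82 members, the genotype table listed 79, and 76 were in both. Marchf4, Marchf11, Rnf32, Rnf128, Rnf183 and Rnf223 were listed only in the MuSC and myoblast table, whereas Rnf112, Rnf208 and Rnf222 were listed only in the genotype table. Rnf43 and Marchf1 were not analysed here.

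Libraries were SMART-Seq cDNA from 1000 cells of mouse skeletal muscle on a C57BL/6 background, in 4 groups of 3. MuSCs were FACS-sorted straight into lysis buffer. Myoblasts were trypsinized after culture, counted and transferred, with no sort at that step described, so these groups also differ in how cells were collected. Freshly isolated WT MuSCs came from 3 WT mice, and myoblasts from the MuSCs of those same mice after 3 days in growth medium with serum and bFGF, replicates 04, 05 and 06 in both groups. MuSCs of another 3 WT mice were compared with MuSCs of 3 Nedd4L-cKO mice, all male and aged 5 to 6 weeks, replicates 01, 02 and 03 in both groups. Nedd4L-cKO mice were Nedd4L fl/fl Pax7 cre/+, so that Cre from the Pax7 locus, active in the myogenic lineage from development onwards, removes exon 15 of Nedd4L, while the rest of the gene can still be transcribed. Whether the WT mice carried Cre is not given in the sources used here, nor are the ages of the mice behind the fresh MuSC and myoblast libraries.

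A RING E3 ligase holds a substrate and a ubiquitin-charged E2 enzyme together so that ubiquitin is transferred, which marks the substrate for the proteasome, for the lysosome or for a change of partners. The members fall into families with different addresses in the cell. Most MARCH proteins span membranes, and several remove receptors or transporters from them. PA-TM-RING proteins carry a protease-associated domain on the lumenal or outer side and a RING in the cytosol. RBR ligases pass ubiquitin through a cysteine of their own. Other members act on histones, at sites of DNA damage, on ribosomes or in endoplasmic reticulum (ER) quality control. In muscle, ubiquitin ligases are best known for the breakdown of myofibrils in atrophy, and in MuSCs for control of the myogenic regulatory factors.

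Expression is given as RPM, the deposited normalized count per 1000000 of the mean library total of its table, and differences as log2 fold changes of RPM + 1. Testing was limited to genes that reached 10 normalized counts in 3 or more of the 6 libraries, and "called" stands for an adjusted p no higher than 0.05 by limma, with Benjamini-Hochberg adjustment across every tested gene. Library totals ranged from 33189802 to 37595659 normalized counts in the MuSC and myoblast table and from 40323468 to 50687122 in the genotype table. Nedd4l itself stood at 70.2, 96.4 and 66.7 RPM in WT and at 30.2, 36.3 and 22.5 RPM in Nedd4L-cKO MuSCs (log2 fold change -1.37, SE 0.28, adjusted p = 0.0467), and the groups did not overlap. With any 1 of the 6 libraries left out its adjusted p was above the threshold, at 0.0587 to 0.2096, as it was without limma's trend and robust options, with no filter, with a pseudocount of 0.1 RPM and with the replicate block, at 0.0533 to 0.0853. Pax7, which defines MuSCs, was at 249, 158 and 151 RPM in the fresh MuSC libraries and 18.9, 21.2 and 17.8 RPM in the myoblast libraries. The fresh MuSC libraries also held 732, 720.0 and 524 RPM of Myog, a differentiation factor, against 3374, 3344 and 4521 RPM in myoblasts. Marker lists of other cells summed, in fresh MuSCs and then in myoblasts, to 41.9 to 44.3 and 7.82 to 13.8 RPM (endothelial), 2.74 to 6.65 and 3.12 to 3.51 RPM (immune), 0.128 to 12.1 and 0.294 to 3.08 RPM (Schwann), 46.2 to 160.0 and 3.096 to 4.63 RPM (fibro-adipogenic), 1092 to 1401 and 1647 to 2414 RPM (smooth muscle and pericyte) and 111 to 337 and 8275 to 18385 RPM (myofiber). Acta2 made up most of the smooth muscle and pericyte sums, at 1382, 1341 and 1078 RPM in fresh MuSCs and 2400, 1610 and 1671 RPM in myoblasts. Pdgfrb on that list ran from 0 to 1.23 RPM. Acta1 made up most of the myofiber sums in myoblasts, at 7018, 9067 and 14266 RPM. These sums do not separate other cells from MuSCs or myoblasts that express the same genes. Cdh5 and Ptprc, which define endothelial and immune cells, were below 1 RPM in each of the 6 libraries. On the endothelial list Tek fell in myoblasts (log2 fold change -4.48), but Pecam1 was not called (-0.38). On the fibro-adipogenic list Col1a1 and Dcn fell (-5.81 and -3.87), Pdgfra was not called (0.08) and Ly6a rose (1.35). Ly6a was at 0, 0.428 and 0.0271 RPM in fresh MuSCs and 1.45, 1.86 and 2.497 RPM in myoblasts. What other cells contributed to the members' values was not tested. In these bulk libraries, fewer cells expressing a gene and less of its RNA per cell cannot be told apart.

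Per kilobase of exon, Rnf7 was the most abundant member in fresh MuSCs, at 218 ± 17.4 RPM per kb (mean ± SD, n = 3). Rnf7 encodes a small RING subunit of cullin-RING ligases that works with Cul5. It was above every other member in each of the 3 fresh MuSC and the 6 genotype libraries, but below Rnf187 in myoblast replicates 05 and 06. Rnf187 followed at 57.3 ± 11.6 RPM per kb, then Rnf167 at 43.3 ± 9.35, Rnf4 at 38.9 ± 7.82, Rnf5 at 38.2 ± 3.95, Rnf2 at 24.4 ± 6.53, Rnf115 at 21.4 ± 1.86 and Rnf185 at 15.04 ± 3.78 RPM per kb. Rnf167, Rnf4 and Rnf5 differed by less than 1 SD of Rnf167, and the ranges of Rnf2 and Rnf115 met as well. At the other end, Rnf183 and Marchf11 were at 0 in all 3 fresh MuSC libraries. The same members were abundant in the other WT cohort: across the 76 members listed in both tables, mean RPM per kb in fresh MuSCs and in the WT MuSCs of the genotype table had a Spearman rho of 0.957. Both axes share exon lengths, so that value is a description, and the tables were normalized separately.

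The first comparison asked which ligases differ between freshly sorted MuSCs and the myoblasts they give rise to in culture. Of the 82 members listed in the MuSC and myoblast table, 77 passed the filter on low values and 30 were called, 18 higher and 12 lower in primary myoblasts. Over all 15345 tested genes, 42.8% were called, 22.2% as higher and 20.6% as lower, and the members' share of 39% was close to it. The groups did not overlap for 42 of the 77 members, against 55.2% of all tested genes, and each of the 30 called members was among them. The median log2 fold change over the tested members was 0.06, beside 0.04 over all tested genes. Of the 18, Rnf128, Rnf32, Rnf183 and Rnf223 reached the minimum count in all 3 myoblast libraries but in at most 1 fresh MuSC library, so they had to differ to be tested. With 10 normalized counts required in all 6 libraries, 26 of 70 members were called, 14 higher and 12 lower. Of the 77, 65 reached a mean of 5 RPM in either group. Of the 30, 20 were called with each of the 6 libraries left out in turn. The untested members were Rnf17, Rnf144b, Rnf180, Marchf10 and Marchf11, each below 3 RPM in every library. SMART-Seq does not keep the strand, so reads from exons that 2 genes share on opposite strands cannot be told apart. Besides the overlaps given below, opposite-strand exons cover 46.3% of the exonic sequence of Rnf146 (Echdc1 among others), 42.2% of Rnf214, 29.4% of Rnf5, 26.5% of Rnf185, 20.7% of Rnf7 and of Rnf34, 17.2% of Rnf181 (Tmem150a), 15.9% of Rnf11 (Ttc39a) and of Rnf40, and 11.1% to 13.4% of Rnf4, Rnf31, Rnf44, Rnf166, Rnf183 and Marchf5. Marchf2 shares 11.3% of its exonic sequence with Hnrnpm on the same strand.

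**Figure D1:**
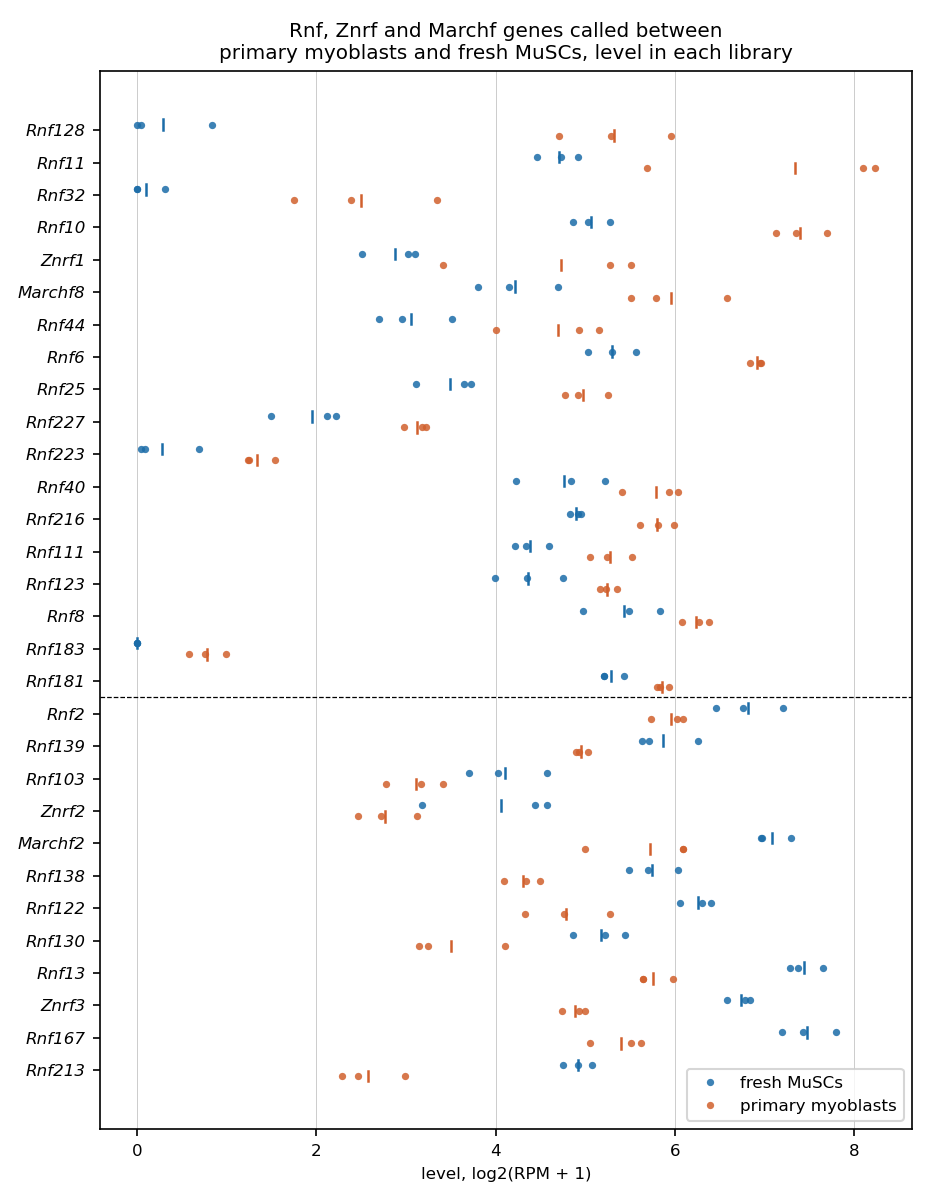
Level of each of the 30 called members in each library, as log2(RPM + 1), with fresh MuSCs in blue and primary myoblasts in orange, ordered by log2 fold change, with short vertical lines at group means (3 libraries each). The 18 genes above the dashed line were higher in myoblasts, led by Rnf128, and the 12 below it were lower, with Rnf213 at the foot. No gene has overlapping groups. Rnf128, Rnf32, Rnf183 and Rnf223 passed the filter through the myoblast libraries, so they had to differ to be tested.

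Among the 7 PA-TM-RING genes, all tested, 4 fell and 1 rose in myoblasts, beside 20.6% and 22.2% of all tested genes. Their median log2 fold change was -1.68. The 1 that rose was Rnf128, whose side was set by the filter. Rnf128, also called GRAIL and known for restraint of T cell activation, was close to absent in fresh MuSCs, at 0, 0.781 and 0.0285 RPM, and stood at 60.8, 38.1 and 25.1 RPM in myoblasts. Its log2 fold change of 5.02 was the highest of any tested member, though it reached the minimum count in only 1 of the 3 fresh MuSC libraries and passed the filter through the myoblast libraries, so that no test of it is given. Its RefSeq promoter on the X chromosome lies inside the annotated gene and ends within an annotated Rnf128 exon.

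Rnf167 and Rnf13, paralogues whose proteins sit on endosomes and lysosomes, were among the most expressed members in fresh MuSCs and fell together. Rnf167 was at 221, 171 and 145 RPM in fresh MuSCs and at 32.3, 44.6 and 48.1 RPM in myoblasts (log2 fold change -2.08, SE 0.24, adjusted p = 2.06e-04). Opposite-strand exons, of Pfn1 and Slc25a11, cover 38.2% of its exonic sequence. Rnf13 had 165, 201 and 154 RPM before and 62.2, 48.8 and 48.8 RPM after culture (log2 fold change -1.68, SE 0.20, adjusted p = 2.46e-04). The lowest fresh MuSC library was well above the highest myoblast library for both genes.

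Znrf3, which removes the Wnt receptor Frizzled from the cell surface unless R-spondin and an Lgr receptor draw it away, was at 113, 94.5 and 109 RPM in fresh MuSCs and 30.8, 25.8 and 29.5 RPM in myoblasts (log2 fold change -1.84, SE 0.20, adjusted p = 1.43e-04). The spread within each group was small beside that gap. Rnf130, the mouse counterpart of fly Goliath and a paralogue of Rnf128, moved the other way from Rnf128, from 42.6, 27.96 and 36.1 RPM to 16.2, 8.5 and 7.83 RPM (log2 fold change -1.68, SE 0.33, adjusted p = 0.00382). Rnf149 and Rnf150 were not called, with log2 fold changes of 0.19 and -0.44.

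In the MARCH family, 8 of 10 listed genes were tested, of which 1 rose and 1 fell, beside 22.2% and 20.6% of all tested genes. Marchf8, which drives surface proteins such as MHC class II and the transferrin receptor towards lysosomes, rose from 16.8, 12.99 and 24.9 RPM to 44.6, 94.3 and 54.3 RPM (log2 fold change 1.74, SE 0.34, adjusted p = 0.00374). Marchf2, an endosomal relative, fell from 156, 124 and 125 RPM to 30.96, 67.01 and 67.2 RPM (log2 fold change -1.35, SE 0.31, adjusted p = 0.00738). Marchf6, an ER ligase for sterol synthesis enzymes, was at 27.8, 23.7 and 31.1 RPM before and 24.2, 23.8 and 30.2 RPM after culture, and the 95% interval around its log2 fold change of -0.07 ran from -0.62 to 0.47. Marchf5, on the mitochondrial outer membrane, was at 56.8, 52.3 and 57.7 RPM in fresh MuSCs and 15.9, 68.8 and 58.7 RPM in myoblasts, where replicate 04 alone lay below the fresh MuSC range (adjusted p = 0.468). Marchf7 was lower in every myoblast library without passing the test (log2 fold change -0.57, SE 0.24, adjusted p = 0.0861).

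Of 8 tested ligases of the ER membrane, none rose and 2 fell, beside 22.2% and 20.6% of all tested genes. Rnf139, also known as TRC8 and linked to sterol metabolism, was at 75.3, 51.3 and 48.5 RPM in fresh MuSCs and 31.8, 28.8 and 29.5 RPM in myoblasts (log2 fold change -0.91, SE 0.24, adjusted p = 0.0138). Exons of Tatdn1 on the opposite strand cover 66.3% of its exonic sequence, the largest such overlap among the called genes. Rnf103 fell from 22.9, 15.3 and 12.03 RPM to 5.84, 7.98 and 9.603 RPM (log2 fold change -0.99, SE 0.34, adjusted p = 0.0424). The call was lost without 5 of the 6 libraries and in 2 further refits, with an adjusted p of 0.0663 with each library scaled to its own total, 0.0814 with mouse as a block, 0.119 without fresh MuSC replicate 04, 0.0892 without fresh MuSC replicate 05, 0.08202 without myoblast replicate 04, 0.0967 without myoblast replicate 05 and 0.0603 without myoblast replicate 06. Rnf145, a sensor of sterols related to Rnf139, was at 57.6, 48.7 and 34.1 RPM and 96.4, 89.4 and 54.4 RPM and missed the threshold (adjusted p = 0.0632), but passed it with mouse as a block (adjusted p = 0.0321). Rnf5 and Rnf185, paralogues in ER-associated degradation, had log2 fold changes of -0.12 and -0.24, neither called.

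The RBR group had 7 tested genes with 1 called, beside 42.8% of all tested genes. Rnf216, also called Triad3A, rose from 29.2, 27.5 and 29.9 RPM to 55.2, 62.2 and 47.9 RPM (log2 fold change 0.90, SE 0.21, adjusted p = 0.00849), with the 3 libraries of each group close together. Rnf31, the catalytic subunit of the linear ubiquitin chain assembly complex, was at 8.94, 10.7 and 7.95 RPM and 13.5, 5.71 and 4.84 RPM, and its groups overlapped (adjusted p = 0.579). Rnf14, which ubiquitinates translation factors trapped on ribosomes, was at 127, 146 and 127 RPM and 175, 164 and 129.7 RPM (adjusted p = 0.3696).

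Among chromatin and DNA damage ligases, 2 of 7 rose and 1 fell, beside 22.2% and 20.6% of all tested genes. Rnf2, the catalytic subunit of Polycomb repressive complex 1 that ubiquitinates histone H2A, fell from 147, 87.1 and 107 RPM to 67.2, 64.04 and 52.2 RPM (log2 fold change -0.86, SE 0.24, adjusted p = 0.0176); adjusted p was 0.0535 without fresh MuSC replicate 04 and 0.0633 without myoblast replicate 06. Rnf40, which with Rnf20 ubiquitinates histone H2B, rose from 27.7, 36.2 and 17.7 RPM to 60.2, 64.4 and 41.5 RPM (log2 fold change 1.03, SE 0.31, adjusted p = 0.0246), with adjusted p of 0.08102 without fresh MuSC replicate 06, 0.0507 without myoblast replicate 04 and 0.0942 without myoblast replicate 05. Its partner Rnf20 did not pass the test, at 65.4, 42.1 and 52.2 RPM and 40.6, 58.5 and 64.8 RPM (log2 fold change 0.03, adjusted p = 0.931). The difference between these partners was not tested. Rnf8, which opens the ubiquitin response at DNA double-strand breaks, rose from 43.99, 56.02 and 30.5 RPM to 82.2, 75.8 and 66.3 RPM (log2 fold change 0.80, SE 0.26, adjusted p = 0.0317). Leaving out a library often ended that call, with adjusted p of 0.0592 without fresh MuSC replicate 04, 0.103 without fresh MuSC replicate 06, 0.0595 without myoblast replicate 04, 0.0904 without myoblast replicate 05 and 0.0537 without myoblast replicate 06. Rnf168, which acts after Rnf8 at breaks, was at 2.82, 6.61 and 8.62 RPM and 2.84, 13.8 and 11.1 RPM (adjusted p = 0.563). Rnf4, which targets SUMO-modified proteins, was among the most abundant members in both groups, at 386, 315 and 258 RPM and 355, 312 and 262 RPM (log2 fold change -0.03, 95% interval -0.51 to 0.44).

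In the RNF114 family, 1 of 4 tested genes was called, beside 42.8% of all tested genes. Rnf138, which has a zinc finger beside its RING and acts in DNA end resection, fell from 43.9, 51.1 and 64.6 RPM to 21.6, 19.2 and 16.01 RPM (log2 fold change -1.44, SE 0.25, adjusted p = 0.00186), while Rnf114 stood at 71.01, 53.5 and 68.8 RPM and 70.3, 69.6 and 67.4 RPM (adjusted p = 0.684).

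The largest role group was a mixed list of ligases in signalling, quality control and other named roles. It had 21 tested genes, of which 7 rose and 2 fell, with a median log2 fold change of 0.64. The share called, 42.9%, was close to the 42.8% of all tested genes. Rnf11, a small RING protein that binds Nedd4 family ligases through a PY motif, was at 25.5, 21.1 and 29.3 RPM in fresh MuSCs and 50.4, 274 and 299.6 RPM in myoblasts (log2 fold change 2.64, SE 0.59, adjusted p = 0.00688). The range among myoblast libraries was wide, replicate 04 standing close to the fresh MuSC libraries. Rnf6, a relative of Rlim, rose from 38.3, 46.3 and 31.7 RPM to 123, 122 and 113 RPM (log2 fold change 1.61, SE 0.21, adjusted p = 3.69e-04), and its 3 myoblast libraries differed little. Rnf25, which acts on ribosomes whose elongation factors are trapped, rose from 11.5, 12.2 and 7.64 RPM to 37.1, 29.2 and 26.3 RPM (log2 fold change 1.49, SE 0.29, adjusted p = 0.00343). Opposite-strand exons of Bcs1l cover 21.5% of Rnf25. Rnf44 rose from 6.78, 10.4 and 5.48 RPM to 15.1, 29.5 and 34.7 RPM (log2 fold change 1.64, SE 0.38, adjusted p = 0.00837).

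Rnf111, also called Arkadia, which degrades the SMAD repressors Ski and Skil and so promotes TGF-β signalling, rose from 17.5, 19.2 and 23.2 RPM to 32.3, 44.8 and 36.9 RPM (log2 fold change 0.89, SE 0.25, adjusted p = 0.0178). Its adjusted p was 0.0553 without fresh MuSC replicate 05, 0.07897 without myoblast replicate 05 and 0.0536 without myoblast replicate 06. Rnf123, the catalytic subunit of the KPC complex that targets the cell cycle inhibitor p27, rose from 14.9, 19.3 and 25.9 RPM to 39.9, 34.8 and 36.4 RPM (log2 fold change 0.88, SE 0.26, adjusted p = 0.02497), and its adjusted p was 0.0655 without fresh MuSC replicate 04, 0.0683 without fresh MuSC replicate 05, 0.0627 without myoblast replicate 05 and 0.0676 without myoblast replicate 06. Opposite-strand exons, of Amigo3 and Gmppb among others, cover 26.8% of Rnf123. In both genes the 3 myoblast libraries lay above the 3 fresh MuSC libraries, by a margin that the loss of a library could bring below the threshold.

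The paralogues Znrf1 and Znrf2, membrane-associated ligases first described in nerve, moved in opposite directions. Znrf1 was at 4.68, 7.56 and 7.09 RPM in fresh MuSCs and 9.63, 44.4 and 37.7 RPM in myoblasts (log2 fold change 1.86, SE 0.53, adjusted p = 0.0203), with myoblast replicate 04 only just above the fresh MuSC libraries. Opposite-strand exons, of Ldhd among others, cover 35.5% of Znrf1. Znrf2 was at 22.7, 8.04 and 20.6 RPM and 4.503, 5.61 and 7.73 RPM (log2 fold change -1.29, SE 0.42, adjusted p = 0.0359), with fresh MuSC replicate 05 only just above the myoblast libraries. Both calls depended on single libraries. For Znrf1 adjusted p was 0.0619 without fresh MuSC replicate 04, 0.0848 without myoblast replicate 05 and 0.0744 without myoblast replicate 06. For Znrf2 it was 0.108 without fresh MuSC replicate 04, 0.118 without fresh MuSC replicate 06, 0.0757 without myoblast replicate 04, 0.0958 without myoblast replicate 05 and 0.0506 without myoblast replicate 06, and 0.0542 with each library scaled to its own total. Rnf128 and Rnf130 were the other pair of listed paralogues with calls in opposite directions. Rnf128 passed the filter through the myoblast libraries, where it is high, so no test of that pair is given.

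Rnf213, a giant AAA-ATPase with a RING domain that is induced by interferon and is known from moyamoya disease, had the largest fall of any tested member, from 32.6, 25.98 and 29.3 RPM to 6.91, 4.53 and 3.86 RPM (log2 fold change -2.34, SE 0.30, adjusted p = 3.88e-04). Among 10 interferon-stimulated genes, all tested, 5 fell and none rose, beside 20.6% and 22.2% of all tested genes. Their summed level was 75.9 to 238 RPM in fresh MuSCs and 15.4 to 25.6 RPM in myoblasts. Among the fresh MuSC libraries, replicate 04 had the most Rnf213. It also had the most Mx1, at 1.17 RPM against 0.722 and 0.937 RPM in replicates 05 and 06, and the least of every other gene on that list. Ifit1, not called (adjusted p = 0.137), was at 0.581 RPM there against 26.7 and 29.1 RPM. Whether interferon had a part in the values of Rnf213 was not tested. Rnf146, which recognises poly-ADP-ribosylated Axin, was at 113, 77.7 and 92.4 RPM and 80.4, 72.1 and 59.4 RPM (adjusted p = 0.163). Rnf7 was lower in each myoblast library, at 251, 173 and 222 RPM against 277, 318 and 319 RPM, but missed the threshold (adjusted p = 0.0592) except without myoblast replicate 04 (adjusted p = 0.0192).

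Of 15 tested members without a role list, 6 rose and 1 fell, beside 22.2% and 20.6% of all tested genes. For Rnf32, Rnf183 and Rnf223, counted among the 6, the side was set by the filter. Rnf10, which ubiquitinates the small ribosomal subunit when translation stalls, rose from 37.8, 31.8 and 28.1 RPM to 138, 206 and 162 RPM (log2 fold change 2.33, SE 0.22, adjusted p = 7.30e-05), a gap far wider than the spread of either group. Opposite-strand exons of Pop5 cover 13.7% of it. Rnf122 fell from 83.6, 65.7 and 77.8 RPM to 19.03, 26.1 and 37.6 RPM (log2 fold change -1.47, SE 0.27, adjusted p = 0.00282). Rnf181 rose slightly, from 42.1, 36.1 and 36.1 RPM to 54.8, 56.02 and 59.9 RPM (log2 fold change 0.57, SE 0.20, adjusted p = 0.04504). Its adjusted p was 0.0939 with mouse as a block, 0.123 without fresh MuSC replicate 05, 0.117 without fresh MuSC replicate 06, 0.109 without myoblast replicate 05 and 0.134 without myoblast replicate 06. The other 4 were scarce in fresh MuSCs, below 4 RPM. Rnf32 went from 0.2403, 0 and 0 RPM to 9.17, 2.37 and 4.22 RPM (log2 fold change 2.39), and Rnf227 from 3.66, 1.82 and 3.36 RPM to 8.03, 6.86 and 8.34 RPM (log2 fold change 1.18, SE 0.33, adjusted p = 0.01903; adjusted p 0.0681 without fresh MuSC replicate 05 and 0.0698 without myoblast replicate 06). Rnf223 went from 0.611, 0.0646 and 0.0324 RPM to 1.37, 1.35 and 1.9 RPM, and Rnf183, listed at 0 in fresh MuSCs, reached 0.987, 0.498 and 0.6896 RPM. No test is given for Rnf32, Rnf183 and Rnf223, which passed the filter through the group where they are high.

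The promoters of Rnf10, Rnf128 and Rnf213 are shown because Rnf128 and Rnf213 had the largest increase and the largest fall among tested members, and Rnf10 a large increase with little spread between libraries. They run 5′ to 3′ along the gene. Sequences are from RefSeq's GRCm38.p6 promoter table, placed on GRCm39 by exact match and ended where an annotated exon begins. For Rnf213 that exon belongs to Gm73154, and GENCODE starts Rnf213 itself further downstream, at 119283926. Capitals mark a TATAAA match.
Rnf10, chr5:115410975-115411204, minus strand: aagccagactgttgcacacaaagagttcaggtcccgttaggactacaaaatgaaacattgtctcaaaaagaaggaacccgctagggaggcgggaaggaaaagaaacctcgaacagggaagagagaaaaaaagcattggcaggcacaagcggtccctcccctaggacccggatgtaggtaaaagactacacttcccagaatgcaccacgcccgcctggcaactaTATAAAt
Rnf128, chrX:138511119-138511355, plus strand: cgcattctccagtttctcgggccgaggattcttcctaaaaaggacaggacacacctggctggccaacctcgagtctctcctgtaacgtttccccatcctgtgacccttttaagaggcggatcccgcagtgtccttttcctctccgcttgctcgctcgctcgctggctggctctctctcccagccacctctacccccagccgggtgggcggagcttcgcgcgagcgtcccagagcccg
Rnf213, chr11:119280675-119280876, plus strand: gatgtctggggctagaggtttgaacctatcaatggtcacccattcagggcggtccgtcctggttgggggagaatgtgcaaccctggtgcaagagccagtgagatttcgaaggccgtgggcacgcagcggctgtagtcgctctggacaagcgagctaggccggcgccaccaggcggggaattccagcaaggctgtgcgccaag

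The Rnf10 stretch holds TATAAA, its first base 27 bases before the RefSeq start. The last 20 bases before that start lie in an annotated Rnf10 exon, so the GENCODE start lies just after the match. The 250-base windows before each start were searched on both strands for 4 motifs. The myogenic E-box CAGCTG was in 13% of all 32851 promoters in the table and 8.33% of the 84 promoters of 65 listed members. For the other E-box, CACGTG, the shares were 6.02% and 5.95%, for TATAAA they were 12.4% and 7.14%, and for the ETS core CCGGAAG they were 6.91% and 14.3%. The members' ETS share rests on 12 promoters of 11 genes. Median GC was 52.4% over all promoters and 60.8% over those of listed members, and the shares were not adjusted for it. The windows of Rnf128 and Rnf213 held none of the 4.

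**Figure D2:**
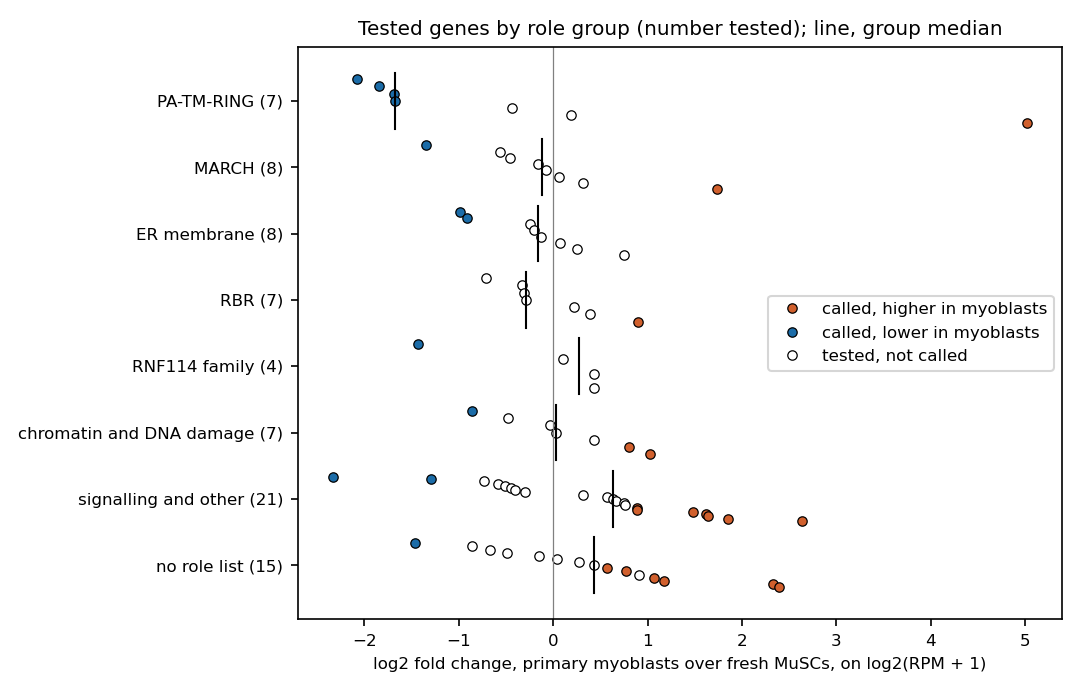
Log2 fold change of each tested member between primary myoblasts and fresh MuSCs, on log2(RPM + 1), by role group; filled points were called and black lines are group medians. Of the 7 PA-TM-RING genes, 4 lie well to the left of 0 and Rnf128 far to the right, while the signalling and unlisted groups have most of their called genes on the right. Rnf128, and Rnf32, Rnf183 and Rnf223 of the unlisted group, passed the filter through the myoblast libraries, so their side was set by it.

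One library stood apart for several members. In myoblast replicate 04, 8 of the 77 tested members lay more than 1 log2 unit below both other myoblast libraries and 1 lay as far above. That share, 11.7%, was close to the 10.9% of all tested genes for which this library stood apart, and in myoblast replicates 05 and 06 no member did. Rnf187, known as a coactivator of c-Jun, was the clearest case, at 90.3, 110.2 and 136 RPM in fresh MuSCs and 47.9, 419 and 329 RPM in myoblasts. It was not called with all libraries (log2 fold change 0.76, SE 0.69, adjusted p = 0.396), but was called as higher without myoblast replicate 04 (log2 fold change 1.74, adjusted p = 5.13e-04). Rnf214 was also lowest in replicate 04, at 40.4, 41.2 and 38.1 RPM and 10.3, 32.8 and 29.2 RPM. Unlike Rnf187, it was lower in each myoblast library and was not called with any library left out. The differentiation gene Myh3, embryonic myosin heavy chain, was at 435, 1521 and 2644 RPM in these 3 libraries, lowest in replicate 04, whereas Myod1 was at 1800.5, 1336 and 1000.0 RPM, highest there. Whether the state of the culture had a part in these members' values was not tested. Without that library 31 of 77 members were called, 20 higher and 11 lower.

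**Figure D3:**
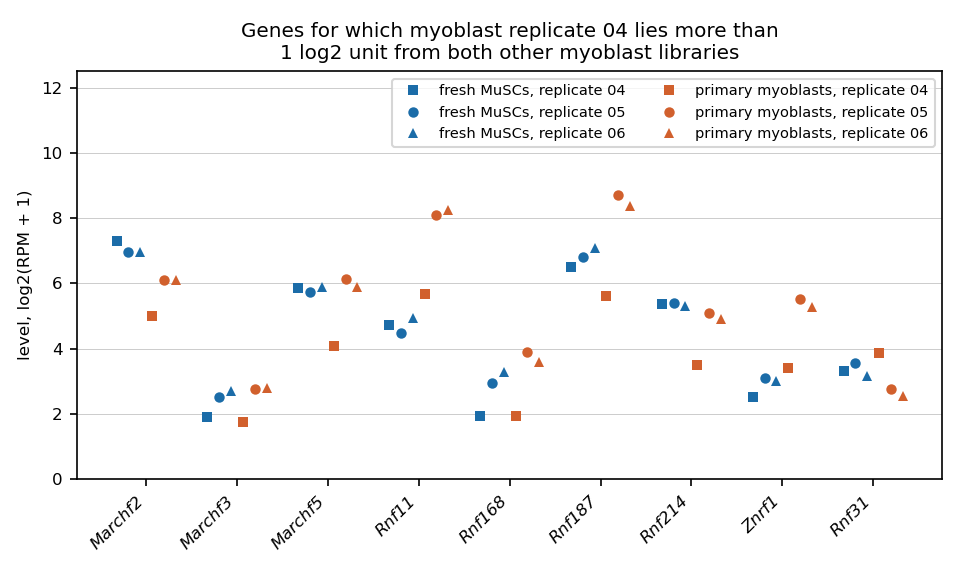
Level, as log2(RPM + 1), of the 9 members for which myoblast replicate 04 (orange squares) lay more than 1 log2 unit from both other myoblast libraries, in all 6 libraries. Rnf11 and Rnf187 show the widest gaps, and Rnf31 is the only one of the 9 with replicate 04 above the other myoblast libraries.

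Genes that work with these ligases were read from a list of 41 cofactors, E2 enzymes and substrates. Of the 37 tested, 4 rose and 9 fell, with a median log2 fold change of -0.05. Over all tested genes 42.8% were called, 22.2% as higher and 20.6% as lower, so calls were no more frequent on this list. Around Znrf3, the R-spondin receptors parted: Lgr4 fell from 76.5, 31.6 and 48.8 RPM to 4.82, 8.82 and 9.78 RPM (log2 fold change -2.56, adjusted p = 8.99e-04) and Lgr6 rose from 1.28, 0.4102 and 0.855 RPM to 8.31, 63.3 and 22.8 RPM (log2 fold change 3.74, adjusted p = 0.00162). Around Rnf2, the Polycomb subunit Pcgf3 rose from 25.8, 20.9 and 15.2 RPM to 57.5, 90.04 and 79.1 RPM (log2 fold change 1.83, adjusted p = 8.93e-04). Skil, a substrate of Rnf111, fell from 320.0, 161 and 207 RPM to 101, 121 and 90.2 RPM (log2 fold change -1.08, adjusted p = 0.0101). Arih2, which pairs with Cul5 and Rnf7, rose from 40.95, 26.7 and 50.98 RPM to 80.3, 107 and 88.4 RPM (log2 fold change 1.23, adjusted p = 0.00588), and the E2 Ube2e3 fell from 95.6, 101 and 142 RPM to 43.2, 59.5 and 56.3 RPM (log2 fold change -1.07, adjusted p = 0.00576). Cul5 itself fell from 206, 183 and 247 RPM to 86.1, 148 and 158 RPM (log2 fold change -0.73, adjusted p = 0.0464), and its adjusted p was 0.0899 without fresh MuSC replicate 04, 0.0711 without fresh MuSC replicate 05, 0.146 without fresh MuSC replicate 06, 0.0678 without myoblast replicate 04 and 0.0668 without myoblast replicate 05, 0.101 with each library scaled to its own total and 0.0561 with TMM factors. The other 6 called partners were Axin1, Ski, Sharpin, Wac and Ube2d2a, which fell, and Pcgf6, which rose, with log2 fold changes from -1.003 to 0.82 and adjusted p of 0.0263 to 0.0481. Each of these 6 missed the threshold without 3 or more of the 6 libraries, with adjusted p up to 0.141, and with mouse as a block Axin1, Pcgf6, Sharpin and Wac missed it at 0.0593 to 0.0647.

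The second comparison asked what loss of Nedd4L in MuSCs does to the same genes. Between Nedd4L-cKO and WT MuSCs, 76 of 79 listed members were tested, all but Marchf10, Rnf112 and Rnf222, and none was called by limma, beside 0.784% of the 15304 genes tested. At an unadjusted p under 0.05 there were 4 members, 5.26% against 14.6% of all tested genes, with 2 higher and 2 lower. The groups did not overlap for 12 members, 15.8% against 19.3% of all tested genes, 5 of them higher in the Nedd4L-cKO libraries and 7 lower. The median log2 fold change of the tested members was -0.09, beside 0.00 over all tested genes. For 42 of the 76 the 95% interval of the log2 fold change lay between -1 and 1, so that a change of 2-fold in RPM + 1 was outside the interval; for the other 34 it was not.

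Values are given for the 6 genes with the smallest unadjusted p in each direction that reached a mean of 5 RPM in either group. Rnf180 was at 0.256, 1.05 and 2.83 RPM in WT and 2.37, 8.48 and 6.93 RPM in Nedd4L-cKO MuSCs (log2 fold change 1.56, 95% interval 0.46 to 2.66, unadjusted p = 0.00924, adjusted p = 0.189), with overlapping groups. Rnf7 was higher in all Nedd4L-cKO libraries, by a narrow margin, at 458, 350.4 and 297 RPM against 239.6, 209 and 296 RPM (log2 fold change 0.56, 95% interval -0.00 to 1.12, unadjusted p = 0.0501, adjusted p = 0.341). Rnf11, whose protein binds Nedd4 family ligases, was at 49.5, 29.8 and 49.7 RPM in WT and 46.7, 64.7 and 95.5 RPM in Nedd4L-cKO MuSCs (log2 fold change 0.65, 95% interval -0.05 to 1.34, unadjusted p = 0.0658, adjusted p = 0.381). Rnf31 was at 2.67, 5.16 and 10.4 and 11.2, 9.07 and 9.55 RPM (adjusted p = 0.418), Rnf144a at 11.6, 9.299 and 9.83 and 13.1, 14.2 and 14.5 RPM (adjusted p = 0.553) and Rnf34 at 30.8, 14.01 and 22.1 and 45.9, 27.5 and 19.3 RPM (adjusted p = 0.631). Below 5 RPM, Rnf17, chiefly known from the germ line, was at 0.118, 0.2699 and 0.0867 and 2.47, 1.497 and 0.355 RPM (unadjusted p = 0.0102, adjusted p = 0.195).

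In the other direction, Rnf145 was at 28.6, 29.4 and 42.8 RPM in WT and 14.7, 13.5 and 27.3 RPM in Nedd4L-cKO MuSCs (log2 fold change -0.87, 95% interval -1.59 to -0.16, unadjusted p = 0.0205, adjusted p = 0.257). Rnf170, an ER ligase for activated inositol trisphosphate receptors, was at 31.7, 31.6 and 51.96 and 22.4, 18.2 and 29.2 RPM (log2 fold change -0.69, 95% interval -1.34 to -0.03, unadjusted p = 0.04198, adjusted p = 0.323). Opposite-strand exons, of Hook3 among others, cover 26.1% of it. In both genes each WT library was above each Nedd4L-cKO library, narrowly. Rnf14 was at 112, 117 and 124 and 71.2, 103 and 72.99 RPM (log2 fold change -0.53, 95% interval -1.07 to 0.01, unadjusted p = 0.0534, adjusted p = 0.348), also without overlap. Rnf166, Rnf2 and Rnf20 had adjusted p of 0.487, 0.517 and 0.526, and of these the groups were apart only in Rnf20, at 52.3, 66.9 and 56.5 and 35.5, 52.1 and 47.1 RPM.

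**Figure D4:**
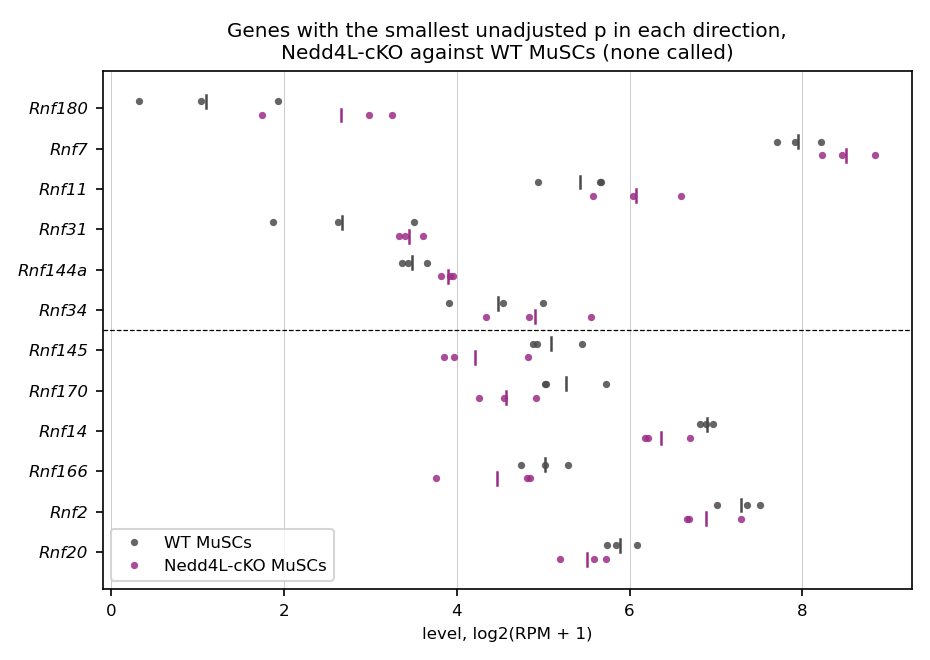
Level of the 6 members in each direction with the smallest unadjusted p, among those that reached a mean of 5 RPM in either group, in each WT (grey) and Nedd4L-cKO (purple) library, as log2(RPM + 1), with group means as short vertical lines; genes above the dashed line have the higher mean in Nedd4L-cKO MuSCs. Points of both groups lie close or overlap throughout, and none of these genes was called.

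Of the 10 members with the widest log2 fold changes in culture, Rnf128 and Rnf32 were not tested here, and none of the other 8 was called. The log2 fold change between Nedd4L-cKO and WT MuSCs was 0.07 (95% interval -0.63 to 0.77) for Rnf213, 0.03 (95% interval -0.69 to 0.75) for Rnf10, -0.37 (95% interval -0.93 to 0.20) for Rnf167, -0.26 (95% interval -1.07 to 0.56) for Znrf1, -0.39 (95% interval -1.07 to 0.29) for Marchf8 and -0.03 (95% interval -0.56 to 0.50) for Rnf13. Znrf3 was at 84.7, 108 and 63.2 RPM in WT and 43.4, 56.04 and 93.7 RPM in mice of the Nedd4L-cKO group, and its log2 fold change was -0.44 (95% interval -1.14 to 0.26). For Marchf5 and Rnf4 it was -0.00 (95% interval -0.69 to 0.68) and -0.36 (95% interval -0.94 to 0.22), for Rnf40 -0.59 (95% interval -1.48 to 0.30), and for Rnf168 -0.25 (95% interval -1.13 to 0.63). Rnf8, Rnf111, Rnf123, Rnf146 and Marchf6 had log2 fold changes from -0.26 to 0.13, none called. Rnf144b was under 1 RPM in every library. Of 38 tested partners 1 was called, beside 0.784% of all tested genes. It was Ube2v1, a cofactor of the E2 Ube2n, at 315, 252 and 225 RPM in WT and 99.8, 61.5 and 132 RPM in Nedd4L-cKO MuSCs (log2 fold change -1.48, adjusted p = 0.0488). That call was lost with an adjusted p of 0.145 without WT replicate 01, 0.142 without WT replicate 02, 0.0588 without WT replicate 03, 0.0906 without Nedd4L-cKO replicate 01 and 0.177 without Nedd4L-cKO replicate 02, and at 0.0571 to 0.102 without limma's trend and robust options, with no filter, with a pseudocount of 0.1 RPM and with the replicate block.

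Marker levels varied among these libraries. The 9 lists read include MuSC, myoblast and interferon-stimulated genes, which are not markers of other cells. Of the 9 lists, 3 had sums that did not overlap between WT and Nedd4L-cKO MuSCs, all higher in Nedd4L-cKO. They were smooth muscle and pericyte genes at 1098 to 1782 and 2051 to 3030.4 RPM, myofiber genes at 157 to 337 and 381 to 463 RPM and interferon-stimulated genes at 62.3 to 106 and 124 to 228 RPM. Dcn, a fibro-adipogenic marker, ranged from 193 to 2208 RPM over both groups. Of 9 MuSC markers, Cd34 and Chrdl2 fell in Nedd4L-cKO MuSCs, and Ifit1 rose among 10 interferon-stimulated genes, while Rnf213 did not pass the test. Adjusted p for Cd34 was 0.0642 without WT replicate 01, 0.131 without WT replicate 02 and 0.112 without Nedd4L-cKO replicate 02. Adjusted p for Ifit1 was 0.114 without WT replicate 01, 0.135 without WT replicate 02, 0.0906 without Nedd4L-cKO replicate 01, 0.164 without Nedd4L-cKO replicate 02 and 0.0561 without Nedd4L-cKO replicate 03, and in 5 other refits it was 0.0504 to 0.0854. Ccnb1, a mitotic cyclin on the myoblast list, was also called higher (log2 fold change 2.20, adjusted p = 0.0325), but had adjusted p of 0.116 without WT replicate 02, 0.0536 without WT replicate 03, 0.1004 without Nedd4L-cKO replicate 01, 0.114 without Nedd4L-cKO replicate 02 and 0.0696 without Nedd4L-cKO replicate 03. The part of other cells in the members' values was not tested.

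The comparisons share no library. For the 72 members tested in both, the log2 fold change kept its sign in 36, beside 47.96% of the 14343 genes tested in both. Across those 72 genes Pearson's r was -0.03 and Spearman's rho -0.09, and across all genes they were 0.05 and 0.00, as a description with genes that are not independent. 

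**Figure D5:**
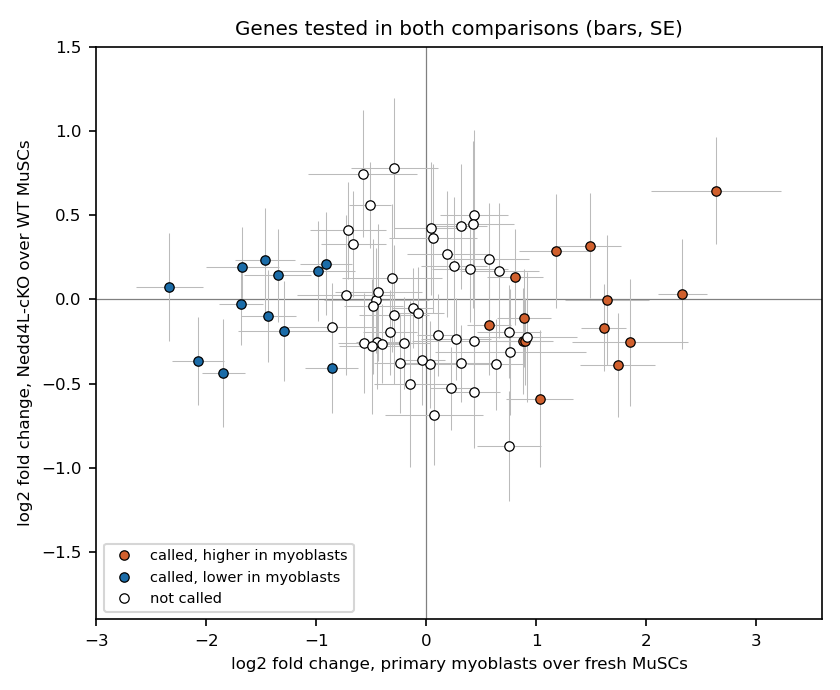
Log2 fold change of the 72 members tested in both comparisons, primary myoblasts over fresh MuSCs on the x axis and Nedd4L-cKO over WT MuSCs on the y axis, with SE as bars; filled points were called in culture. The cloud is wide along x, from -2.34 to 2.64, and narrow along y, from -0.87 to 0.78.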

How the data were processed

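Normalized counts of 12 SMART-Seq libraries, 3 in each of 4 groups, were read from 2 tables. Per the labels and methods, the authors quantified reads with kallisto 0.46.1 on GENCODE M28, summed them to genes and divided them by DESeq2 factors. The deposited values are therefore a signal scaled between libraries and not whole reads. Reads were not recovered, so read depth and counting error are unknown, and a count model was not run. The authors' log2 fold changes, standard errors, p-values and adjusted p-values, and their RPM columns, were not used.

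Normalized counts were divided by the mean of the 6 library totals of their table and multiplied by 1000000, giving RPM. Log2(RPM + 1) was fitted with limma 3.58.1 in R 4.3.3 (trend and robust moderation, group as the only term), and p-values were Benjamini-Hochberg adjusted over all genes that reached 10 normalized counts in 3 or more libraries. Fold changes on this scale understate changes of genes near 0. The fit was tested on simulated data. Exonic lengths, overlaps and positions came from GENCODE M39 on GRCm39, a later release than the authors used. Promoters came from RefSeq's GRCm38.p6 table, which had entries for 65 of the 85 members. Protein sequences were not used here.

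Members are all genes matching the symbol rule. They, the role, partner and marker lists and the tests were chosen with earlier results of these data known. Genes were named with values where called, where fixed by role, where abundant, where paralogues were called in opposite directions, or, by genotype, as the 6 with the smallest p in each direction at a mean of at least 5 RPM. For members, the text goes beyond that rule and names every called gene, and it adds Marchf7, Rnf114, Rnf145, Rnf149, Rnf150, Rnf214, Rnf216 and Rnf17 after their values were seen. The values of 1 member are not reported here. Fresh MuSC and myoblast libraries with the same number came from the same mouse per the labels. Their deviations from group means correlated at -0.03, -0.01 and 0.02, and mouse was a block in an alternative fit. Other alternatives were the pseudocount, the filter, the scaling, limma's options, the call threshold and each library left out. With 3 libraries against 3, an exact permutation test cannot go below 0.1, so none was run.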

Additional observations from a re-analysis of the deposited data

How the results depend on the processing

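Of 77 tested members, the 30 called between myoblasts and fresh MuSCs became 21 when a log2 fold change of at least 1 in size was also required, 26 with 10 normalized counts in all 6 libraries, 31 with no filter, 31 with each library scaled to its own total and 22 to 31 with 1 library left out. With the replicate block, which here is the mouse, 29 were called, 28 of them among the 30. No member was called between Nedd4L-cKO and WT MuSCs under any alternative run by limma. Replicate numbers in that comparison do not mark a shared mouse, and deviations of same-numbered libraries correlated at 0.02, -0.02 and -0.18; with the replicate block the lowest adjusted p of a member was 0.139, and calls over all genes went from 120 to 76. They were 50 without limma's trend and robust options, 213 under the stricter filter, 74 and 41 without WT replicate 01 or 02, and 48 and 22 without Nedd4L-cKO replicate 01 or 02.

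Scaling each library to its own total moved the median log2 fold change of all genes to 0.14 in culture and -0.09 by genotype, where 56 of 100 calls were higher, against 80 of 120. The members' genotype median became -0.20 with it and ran from -0.12 to 0.014 with 1 library left out. Uncalled genes near 0 changed sign. Under own-total scaling, log2 fold changes in culture were 0.058 for Marchf6, 0.10 for Rnf4 and 0.012 for Rnf5, and by genotype -0.050 for Rnf213. With TMM factors Marchf5 by genotype was 2.08e-05. With 1 library left out, values in culture ran from -0.83 to 0.19 for Marchf5, -0.18 to 0.014 for Marchf6, -0.12 to 0.23 for Rnf20 and -0.18 to 0.11 for Rnf4. By genotype they ran from -0.26 to 0.26 for Marchf5, -0.24 to 0.12 for Marchf6, -0.27 to 0.11 for Rnf111, -0.12 to 0.13 for Rnf13, -0.14 to 0.22 for Rnf144b, -0.55 to 0.079 for Rnf168, -0.16 to 0.29 for Rnf213 and -0.048 to 0.23 for Rnf8. The cause was not tested. Read depth is unknown, so counting error could not be set beside these values.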
